A study of Mus musculus with 9 samples.

Results

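The subject is a set of 36 genes for the transcription factor NRF2, its inhibitor KEAP1, their best known target genes and the main antioxidant enzymes of the cell. The genes are matched by symbol from a list drawn up with earlier results of these data known, and all 36 were found among the 54281 genes of the deposited table. They fall into 8 role groups: the regulators, heme and quinone enzymes, glutathione synthesis and recycling, the thioredoxin system, peroxiredoxins, glutathione peroxidases, glutathione transferases, and superoxide dismutases with catalase. RNA was sequenced from lung macrophages of female wild-type mice 12 weeks old, in 3 groups of 3 libraries. One group breathed air, and the others were sampled 24 h and 72 h after a single 3 h exposure of the whole body to 0.8 ppm ozone, an oxidant gas that injures the lining of airways and alveoli. All mice were wild type and were killed with ketamine and xylazine, and in all groups the cells were washed out of the air spaces under gentle massage and red cells were lysed. The cells are thus what lavage brings up, not a sorted population. Totals were 47095543 to 60248305 estimated counts per library, and levels are given as CPM, counts scaled to library size.

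NRF2 is held at a low level by KEAP1, which hands it to a ubiquitin ligase. When reactive molecules modify KEAP1, NRF2 accumulates, enters the nucleus, pairs with a small MAF protein and binds antioxidant response elements near genes for glutathione synthesis, thioredoxin reduction, heme breakdown and quinone reduction. Glutathione and thioredoxin supply the electrons with which peroxidases and peroxiredoxins reduce hydrogen peroxide and lipid peroxides. Resident alveolar macrophages live in an oxygen-rich space and make superoxide themselves when they engulf particles.

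The antioxidant response element has a core, TGACNNNGC, that was searched on both strands from 250 bases before to 50 bases after each start site in the RefSeq promoter table (build GRCm38.p6). The table held 39 such windows for 31 of the 36 genes, and Hmox1, Gsta4, Gsr, Gclc and Prdx6 had no entry. The core was found in 8 windows of 8 genes, 25.8% of the 31 genes, against 14.0% of all 27025 genes in the table, or 20.5% of windows against 12.4% of all 32851 windows. A match of these letters is a description of sequence and is not a measured binding site. The 8 matches are printed with up to 20 bases on each side, and the other genes with an entry held no match. Each is 5′ to 3′ on the strand of the gene, with the core in capitals, and a core in the reverse orientation reads GCNNNGTCA.
Gsta3, chr1:21240444-21240492, plus strand: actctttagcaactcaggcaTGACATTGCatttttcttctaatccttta
Nfe2l2, chr2:75704875-75704913, minus strand: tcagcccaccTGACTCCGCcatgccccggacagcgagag
Srxn1, chr2:152105532-152105573, plus strand: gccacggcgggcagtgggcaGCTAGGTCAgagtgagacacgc
Gclm, chr3:122245403-122245451, plus strand: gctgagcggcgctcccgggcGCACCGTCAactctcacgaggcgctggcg
Prdx1, chr4:116685446-116685494, plus strand: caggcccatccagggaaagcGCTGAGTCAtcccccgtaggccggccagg
Mgst1, chr6:138140451-138140499, plus strand: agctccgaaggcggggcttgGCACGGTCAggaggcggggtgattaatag
Txnrd1, chr10:82859094-82859142, plus strand: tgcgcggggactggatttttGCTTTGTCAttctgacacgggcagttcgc
Sod1, chr16:90220686-90220734, plus strand: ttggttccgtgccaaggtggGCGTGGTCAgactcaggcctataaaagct
Only the Prdx1 core overlaps TGAGTCA, the element bound by AP-1 factors; the other 7 do not. Of these 8 genes, Mgst1 was called lower at 72 h than in air and Sod1 lower at 72 h than at 24 h, whereas Gsta3, Nfe2l2, Srxn1, Gclm, Prdx1 and Txnrd1 were called in no comparison of all 9 libraries. Among all 35 tested members, 8 were called lower at 72 h than in air and 9 lower than at 24 h. Over all genes the shares were 3.77% and 12.8%. A link between the core and the calls was not tested.

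Markers of resident alveolar macrophages dominated every library, and all 20 of them were detected in all 9. Their summed level was 40047 to 42752 CPM after air, 26991 to 37225 CPM at 24 h and 31651 to 37530 CPM at 72 h. Chil3 alone made up 54.0% to 59.4% of this sum. At 72 h, 7 of the 20 markers, Chil3 among them, lay below air in all libraries and 4, Car4, Fabp5, Ctsk and Siglec1, lay above it. Of all genes tested, 22.1% lay below air in this way and 17.5% above it. At 24 h, 9 of the 20 lay below air in all libraries and Car4 above it, against 9.06% and 10.4% of all genes. In the same group, 8 of the 10 B cell and 6 of the 10 red cell markers lay above air and 0 below it. A pair of ozone libraries, replicate 2 at 24 h and replicate 1 at 72 h, also carried markers of other cells. In them, the 10 B cell markers summed to 1638 and 1040 CPM, while the other 7 libraries held 158 to 200.3 CPM, with Pax5 at 0 in at least 1 library. The 10 serous cavity macrophage markers, of which Gata6, Selp and Cd5l were at 0 in at least 1 library, summed to 734 and 967 CPM, against 4.36 to 8.24 CPM. The 10 T cell markers summed to 740 and 78.8 CPM, against 3.74 to 15.1 CPM, and the 10 red cell markers to 2942 and 2547 CPM, against 22.8 to 874 CPM. Replicates 1 and 3 at 24 h held 874 and 154 CPM of red cell markers, against 35.2 to 94.9 CPM in air. In the pair, neutrophil markers summed to 154 and 139 CPM, against 53.8 to 79.1 CPM, with Retnlg, Ly6g, Elane, Mpo and Camp at 0 in at least 1 library. The 10 monocyte markers, whose sum is mostly Fn1, reached to 2781 and 4609 CPM, against 1382 to 3374 CPM, and without Fn1 to 298 and 205 CPM, against 33.9 to 52.3 CPM. The 17 lung epithelium markers summed to 623 and 561 CPM in them, against 694 to 862 CPM, and Krt19 made up 54.7% to 70.7% of this sum. At 72 h 9 of the 17, with Cldn18, Krt8 and Krt18 among them, lay above air in all libraries and Krt19 below it. For all genes the shares were 17.5% and 22.1%. Cldn18 was at 7.76, 12.3 and 14.4 CPM at 72 h, against 0.571, 0.981 and 0.965 CPM in air. The part of these shifts in the members' lower levels was not tested. The share of counts from the mitochondrial genome was 5.25% and 6.18% in them, against 2.71% to 3.07%. Replicate 2 of the air group held 143 counts of Xist, which is made from the inactive X chromosome of female cells, against 42538 to 80561 counts in the other 8 libraries. Results are therefore given for all 9 libraries and without the pair that carried other markers, and counts also without that pair and this air library.

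**Figure D1:**
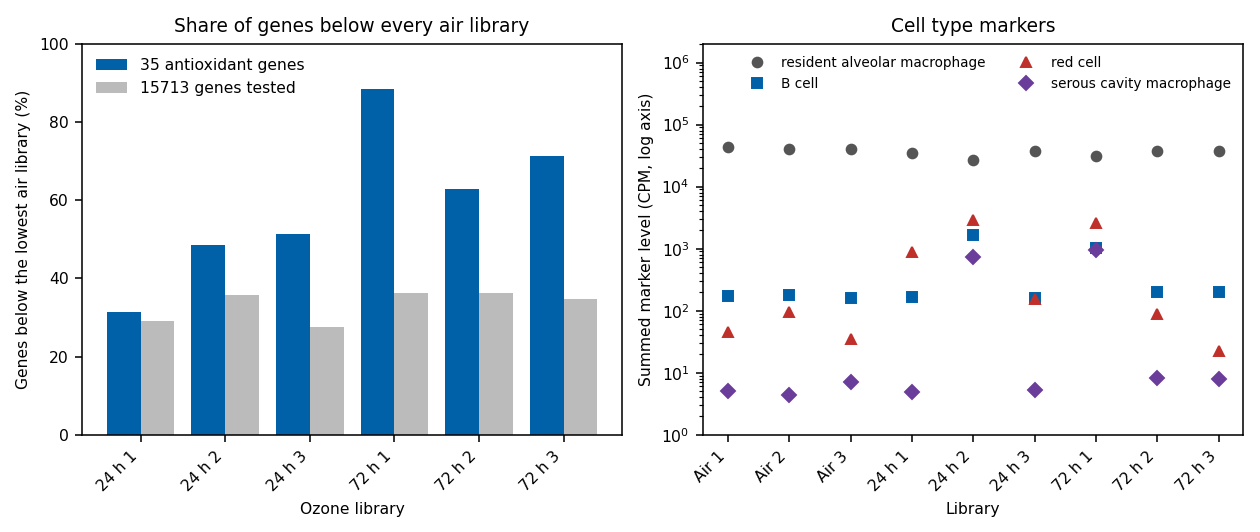
Left, the share of genes (%) whose level in an ozone library lay below all 3 air libraries, for the 35 tested antioxidant genes (blue) and all 15713 tested genes (grey); at 72 h the blue bars stand at 62.9% to 88.6% and the grey bars at 34.8% to 36.3%. Right, summed CPM of marker genes on a log axis in each of the 9 libraries; B cell and serous cavity markers stand high in replicate 2 at 24 h and replicate 1 at 72 h.

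The filter on low counts passed 15713 genes and 35 of the 36 members. Gstt1, a theta class glutathione transferase, did not pass: it had 2 to 46 counts per library, with 0.0394, 0.0677 and 0.133 CPM after air, 0.0801, 0.959 and 0.0422 CPM at 24 h and 0.338, 0.129 and 0.122 CPM at 72 h. Its highest values lay in the pair of libraries with other markers. Per kilobase of principal transcript, the most abundant members over all 9 libraries were Gpx1 with 349, Prdx1 with 346 and Txn1 with 322 CPM per kb, followed by Mgst1, Prdx5 and Gstm1 with 171, 168 and 166 CPM per kb. Gpx1 and Prdx1 averaged 392 ± 52.2 and 383 ± 10.3 CPM per kb in air (SD, n = 3) and did not differ beyond their spread. The least abundant were Slc7a11 with 2.61, Gpx3 with 1.21, Nqo1 with 0.964, Gsta3 with 0.570, Gsta4 with 0.426 and Gstt1 with 0.205 CPM per kb. The order depends on the length used: by the union of all annotated exons Txn1 comes first, and Sod1 stands 19th rather than 11th.

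**Figure D2:**
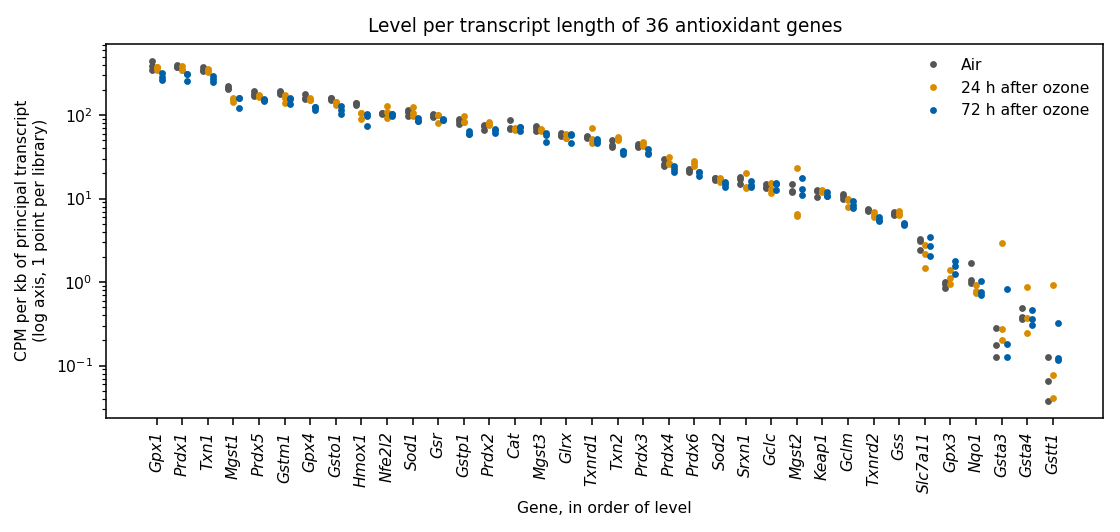
CPM per kilobase of principal transcript (log axis) for the 36 genes in order of mean level, 1 point per library, with air in grey, 24 h after ozone in orange and 72 h after ozone in blue. Gpx1, Prdx1 and Txn1 lead with means of 349, 346 and 322 CPM per kb, and Gsta3, Mgst2 and Gstt1 have single libraries far above the rest.

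The question for the set was whether these genes stood higher or lower in lung macrophages after ozone than after air. With all 9 libraries, edgeR called no member higher than in air at either time. At 72 h after ozone 8 of the 35 tested members were called lower than in air and 0 were called higher, where called means an adjusted p under 0.05 in edgeR's quasi-likelihood test over all 15713 genes. The lower members were Hmox1, Gss, Txn1, Txnrd2, Gpx4, Gstp1, Gsto1 and Mgst1, by 0.37 to 0.59 on the log2 scale. Of all genes tested, 3.77% were called lower and 1.71% higher in this comparison. Fewer cells of a type and less RNA per cell cannot be told apart in such bulk libraries.

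The median log2 fold change of the 35 members at 72 h over air was -0.25, against -0.01 for all genes tested, and 31 of the 35 were negative. All 3 libraries at 72 h lay below all 3 in air for 22 members, against 22.1% of all genes, and above them for 1 member, against 17.5% of all genes. At an unadjusted p under 0.05 there were 20 members, against 25.3% of all genes, and DESeq2 called 14 members lower and Gpx3 higher, with 12.3% of all genes called. The members' summed level was 4708, 4949 and 4961 CPM after air, 4838, 4407 and 4489 CPM at 24 h and 3697, 4026 and 4087 CPM at 72 h. Replicate 1 at 72 h, which carried other markers, was the lowest of the 9 libraries for 14 members and replicate 2 at 72 h for 8 members. The members' median log2 ratio to air was -0.33 in the first of these, -0.23 in the other, and -0.22 in replicate 3 at 72 h.

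Without the pair of libraries with other markers, the 8 members stayed lower at 72 h than in air and Gpx1 and Prdx1 joined them, 10 lower and 0 higher. The median was then -0.21, and 2.70% of all genes were called lower and 4.46% higher. Without the air library lacking Xist as well, Hmox1, Gpx4, Gstp1 and Mgst1 remained, and 2.74% of all genes were called in either direction. The count rested on most single libraries: leaving out air replicate 2, air replicate 3 or any of the 3 libraries at 72 h left 0 calls among the members, air replicate 1 left 2, replicate 1 at 24 h left 4, replicate 3 at 24 h left 8, and leaving out replicate 2 at 24 h gave 14, of which 13 were lower and Gpx3 was higher. Calls over all genes moved as well. In the 5 fits with 0 calls among the members, 31 to 59 of all genes were called (0.197% to 0.375%). Without air replicate 1 it was 1.30% of all genes, without replicate 1 at 24 h 1.92%, without replicate 3 at 24 h 4.07% and without replicate 2 at 24 h 10.3%, against 5.47% with all libraries. In these fits the 8 fold changes stayed between -0.68 and -0.33. With upper quartile scaling 3 members were called lower, and of all genes 107 lower and 192 higher, against 592 and 268 with TMM scaling.

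**Figure D3:**
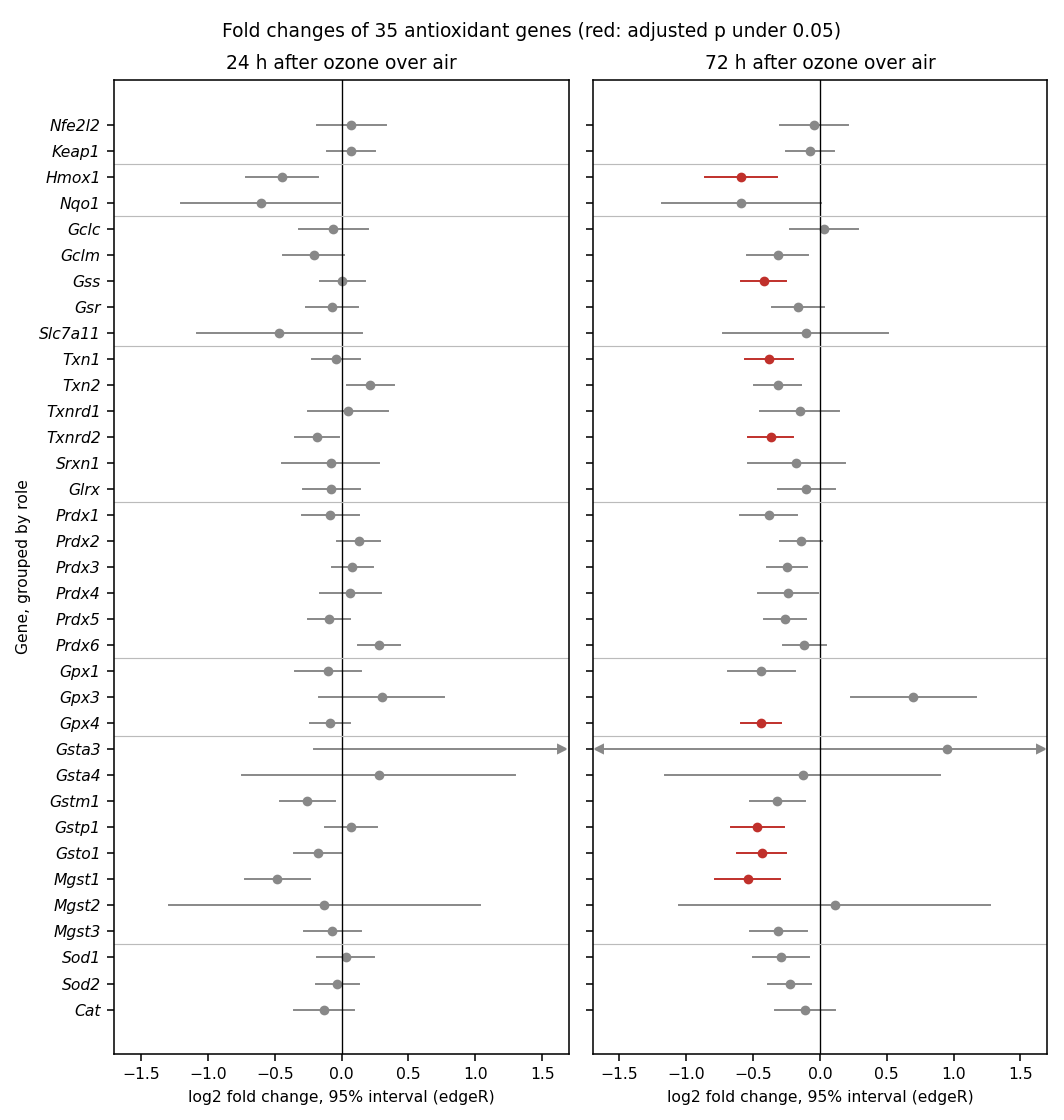
Log2 fold changes from edgeR with 95% intervals for the 35 tested genes, 24 h after ozone over air on the left and 72 h over air on the right, in role groups divided by lines, with arrows where an interval leaves the axis. No gene is red (adjusted p under 0.05) at 24 h, and 8 are red at 72 h, all to the left of 0.

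At 24 h no member was called against air by edgeR, while 0.00636% of all genes, a single gene, were called in either direction. At an unadjusted p under 0.05 there were 7 members, Hmox1, Nqo1, Txnrd2, Gstm1 and Mgst1 with lower values and Txn2 and Prdx6 with higher ones, against 14.7% of all genes. DESeq2 called Hmox1 and Mgst1 lower and Prdx6 higher, with 3.93% of all genes called, and limma voom called 0 members. The median log2 fold change of the members was -0.07, against 0.01 for all genes. All 3 libraries at 24 h lay below all 3 in air for 6 members, against 9.06% of all genes, and above them for 2 members, against 10.4%. Without the pair of libraries with other markers, Mgst1 and Mgst2 were called lower at 24 h, with 0.0509% of all genes called lower and 0.102% higher, and without air replicate 2 as well 0 were called.

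The comparison of 72 h with 24 h asked whether the members moved between the times. In it, 9 members were lower and 0 higher: Gss, Txn1, Txn2, Prdx2, Prdx3, Prdx6, Gpx4, Gstp1 and Sod1, by 0.27 to 0.54 on the log2 scale. In that comparison 12.8% of all genes were called lower and 5.39% higher. The members' median was -0.20, against -0.03 for all genes, and 29 of 35 were negative. All 3 libraries at 72 h lay below those at 24 h for 17 members, against 22.7% of all genes, and above them for 0 members, against 15.0%. At an unadjusted p under 0.05 there were 17 members, against 33.3% of all genes, and DESeq2 called 13 members lower, with 23.1% of all genes called. Both comparisons share the libraries at 72 h, and Gss, Txn1, Gpx4 and Gstp1 were called in both. Without the pair of libraries with other markers, Gss, Txn2, Prdx6, Gpx4 and Gstp1 stayed lower and Mgst2 was higher, while 8.68% of all genes were called lower and 6.63% higher. Leaving out 1 library at a time gave 4 to 9 called members, with 4 when replicate 2 at 72 h was left out, where 4.19% of all genes were called, against 18.2% with all libraries. With upper quartile scaling 7 members were called lower, and of all genes 1302 lower and 1163 higher, against 2008 and 847 with TMM scaling. Gss, Txn2, Prdx6 and Gstp1 were called in all 9 of these fits.

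**Figure D4:**
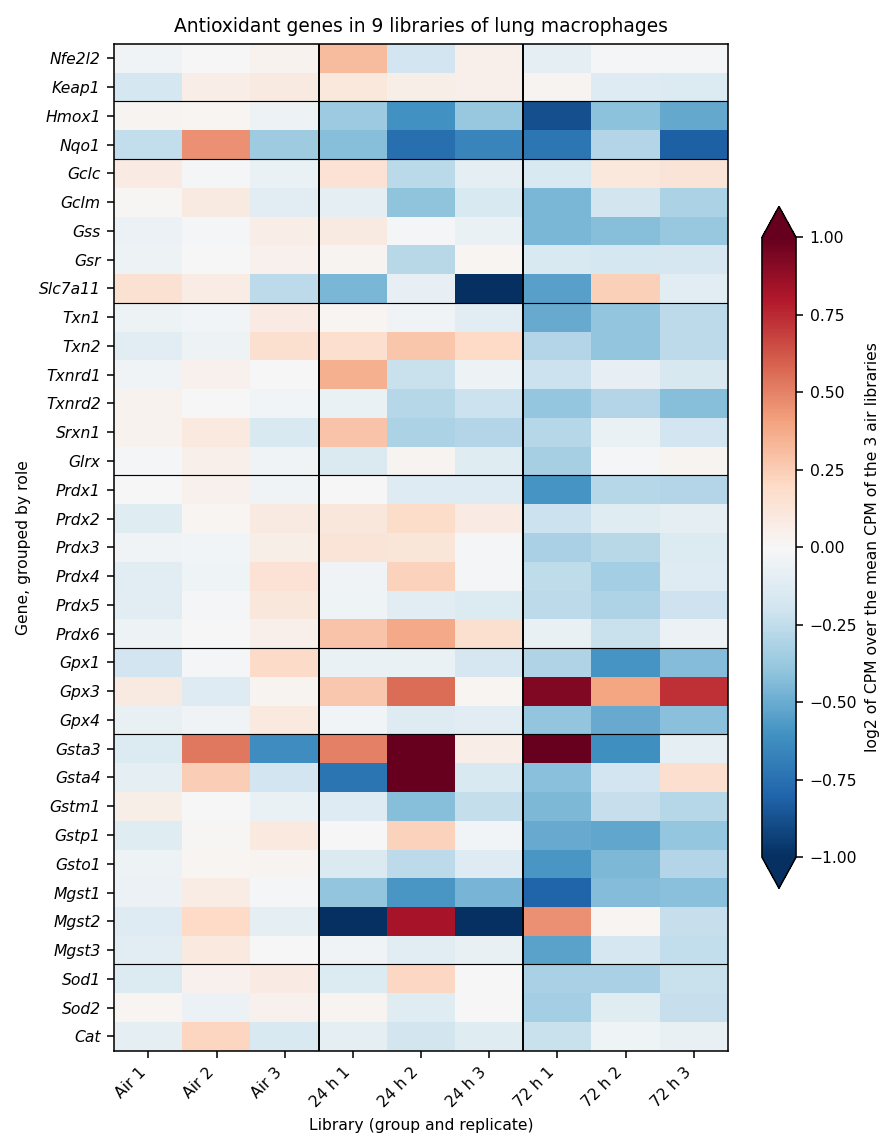
Log2 ratio of CPM to the mean of the 3 air libraries for the 35 tested genes (rows, in role groups divided by lines) in the 9 libraries (columns, air, 24 h and 72 h), blue lower and red higher, with the scale ending at -1 and 1. Hmox1 and Mgst1 are blue from 24 h on, Txn1, Gss, Gpx4 and Gstp1 turn blue at 72 h, and Gsta3, Gsta4 and Mgst2 are set by single libraries.

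The regulators were called in no comparison. Nfe2l2, which encodes NRF2 (chr2:75675513-75704641, minus strand), had 252, 259 and 266 CPM after air, 322, 227 and 269 CPM at 24 h and 244, 256 and 255 CPM at 72 h. The 3 groups overlapped, and the 24 h libraries spread most. Its log2 fold change was 0.07 (95% interval -0.18 to 0.33) at 24 h over air and -0.04 (-0.30 to 0.21) at 72 h over air. Keap1 (chr9:21229730-21239361, minus strand) had 37.6, 44.4 and 45.2 CPM after air, 45.5, 44.1 and 43.8 CPM at 24 h and 43.3, 38.9 and 38.6 CPM at 72 h. Its log2 fold change was 0.07 (-0.11 to 0.25) at 24 h over air and -0.07 (-0.25 to 0.11) at 72 h over air. All 3 Keap1 values at 72 h lay below those at 24 h, a log2 difference of -0.14 ± 0.08 that was not called (edgeR adjusted p = 0.247). NRF2 is regulated mainly as a protein, which RNA counts do not measure.

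With all 9 libraries, the set's largest called fall was that of a heme enzyme. Hmox1, heme oxygenase 1, which breaks heme down to biliverdin, iron and carbon monoxide (chr8:75093621-75100589, plus strand), had 221, 219 and 209 CPM after air, 168, 142 and 166 CPM at 24 h and 118, 162 and 152 CPM at 72 h. Every ozone library lay below every air library, and the 2 ozone groups overlapped. Hmox1 was 33.5% lower at 72 h than in air, a log2 fold change of -0.59 ± 0.12 (SE, edgeR adjusted p = 0.0331), and -0.44 (adjusted p = 0.00538) without the pair of libraries with other markers. At 24 h its log2 fold change over air was -0.45 ± 0.12, not called (adjusted p = 0.176), and 72 h over 24 h gave -0.14 ± 0.12 (adjusted p = 0.455). The lowest value was in replicate 1 at 72 h, where summed red cell markers were 2547 CPM, and the part of hemoglobin-bearing cells in it was not tested. Nqo1, the quinone reductase that serves as a standard readout of NRF2 in many tissues (chr8:107388225-107403206, minus strand), was scarce here, with 1.63, 2.66 and 1.51 CPM after air, 1.44, 1.15 and 1.22 CPM at 24 h and 1.17, 1.58 and 1.10 CPM at 72 h. All its values at 24 h lay below air and those at 72 h overlapped air. Its log2 fold change was -0.61 (-1.20 to -0.01) at 24 h over air and -0.59 (-1.18 to 0.01) at 72 h over air, and neither was called (edgeR adjusted p = 0.335 and 0.202).

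Of the 5 genes for glutathione synthesis and recycling, Gss was called lower at 72 h and the other 4 were called in no comparison. Gss, glutathione synthetase, which adds the last amino acid to glutathione (chr2:155563181-155592810, minus strand), had 12.5, 12.9 and 13.5 CPM after air, 13.8, 12.8 and 12.4 CPM at 24 h and 9.46, 9.62 and 9.97 CPM at 72 h. The libraries at 72 h lay below all others, and air and 24 h overlapped. Gss was 25.2% lower at 72 h than in air (log2 fold change -0.42 ± 0.07, edgeR adjusted p = 0.0277) and 25.5% lower than at 24 h (-0.42 ± 0.07, adjusted p = 0.00950). Acss2 overlaps Gss on the opposite strand with 2.72 to 10.2 CPM. The sources used here do not say if the counting took strand into account.

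Gclc and Gclm, the catalytic and modifier subunits of glutamate-cysteine ligase, the first step of glutathione synthesis, are among the best known NRF2 targets. Gclc (chr9:77754535-77794485, plus strand) had 50.8, 47.6 and 45.8 CPM after air, 53.2, 40.0 and 45.1 CPM at 24 h and 43.2, 51.8 and 52.5 CPM at 72 h. The 3 groups overlapped, with log2 fold changes of -0.06 (-0.32 to 0.20) at 24 h over air and 0.03 (-0.22 to 0.29) at 72 h over air. Gclm (chr3:122245557-122270732, plus strand) had 59.6, 62.7 and 54.9 CPM after air, 55.6, 44.7 and 53.2 CPM at 24 h and 42.9, 52.0 and 47.4 CPM at 72 h. Its values at 72 h lay below all in air, a log2 fold change of -0.32 (-0.54 to -0.09) that was not called (edgeR adjusted p = 0.0962). At 24 h over air it was -0.21 (-0.44 to 0.02).

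Slc7a11, the cystine importer that feeds glutathione synthesis (chr3:49892526-50443614, minus strand), had 30.3, 28.7 and 22.7 CPM after air, 19.9, 25.7 and 13.6 CPM at 24 h and 18.7, 32.0 and 25.2 CPM at 72 h. It varied most between libraries of a group among these 5 genes, and its intervals were wide, -0.47 (-1.08 to 0.15) at 24 h over air and -0.10 (-0.72 to 0.51) at 72 h over air. Gsr, glutathione reductase, which returns oxidised glutathione to its reduced form and was the most abundant of the 5 per length (chr8:33652523-33698163, plus strand), had 255, 264 and 272 CPM after air, 269, 218 and 268 CPM at 24 h and 237, 234 and 234 CPM at 72 h. The 72 h values lay below those in air by -0.17 ± 0.09 on the log2 scale, which was not called (edgeR adjusted p = 0.256).

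In the thioredoxin system, Txn1 and Txnrd2 were called lower at 72 h than in air, and Txn1 and Txn2 lower at 72 h than at 24 h. Over all genes, 3.77% and 12.8% were called lower in these comparisons. The other 3 members were called in no comparison. Txn1, cytosolic thioredoxin (chr4:57943373-57956411, minus strand), had 358, 363 and 391 CPM after air, 376, 361 and 345 CPM at 24 h and 262, 282 and 309 CPM at 72 h. All libraries at 72 h lay below all others. Txn1 was 23.3% lower at 72 h than in air (log2 fold change -0.38 ± 0.08, edgeR adjusted p = 0.0339) and 21.1% lower than at 24 h (-0.34 ± 0.08, adjusted p = 0.0213). Without the pair of libraries with other markers, the difference from 24 h was -0.26 and no longer called (adjusted p = 0.0560).

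Txn2, mitochondrial thioredoxin (chr15:77915047-77929006, minus strand), had 84.9, 88.7 and 103 CPM after air, 104, 111 and 106 CPM at 24 h and 75.2, 70.1 and 76.8 CPM at 72 h. The 3 groups did not overlap, with 24 h highest and 72 h lowest. It was 30.7% lower at 72 h than at 24 h (log2 fold change -0.53 ± 0.08, edgeR adjusted p = 0.00683), the smallest p of any member in that comparison. Its differences from air were not called, 0.21 ± 0.08 at 24 h (adjusted p = 0.279) and -0.31 ± 0.08 at 72 h (adjusted p = 0.0519). Txnrd2, mitochondrial thioredoxin reductase (chr16:18426384-18479073, plus strand), had 21.4, 20.9 and 20.6 CPM after air, 20.1, 17.2 and 18.1 CPM at 24 h and 16.0, 17.1 and 15.6 CPM at 72 h, with no overlap between the 3 groups. It was 22.5% lower at 72 h than in air (log2 fold change -0.37 ± 0.07, edgeR adjusted p = 0.0326).

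Txnrd1, the cytosolic reductase and an NRF2 target (chr10:82833951-82897712, plus strand), had 186, 196 and 191 CPM after air, 244, 164 and 184 CPM at 24 h and 164, 181 and 171 CPM at 72 h. Its 72 h values lay below all in air by -0.15 on the log2 scale (-0.45 to 0.14), and the 24 h group gave 0.05 (-0.25 to 0.34) over air. Srxn1, sulfiredoxin, which repairs over-oxidised peroxiredoxins (chr2:152105516-152111376, plus strand), had 48.5, 50.6 and 42.6 CPM after air, 57.5, 37.9 and 38.6 CPM at 24 h and 38.7, 45.2 and 41.5 CPM at 72 h. Its groups overlapped, with -0.08 (-0.44 to 0.28) at 24 h over air and -0.18 (-0.54 to 0.18) at 72 h over air. Glrx, glutaredoxin, was at 62.4 to 81.3 CPM over the 9 libraries, with log2 fold changes of -0.08 ± 0.09 at 24 h and -0.10 ± 0.09 at 72 h over air.

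All 6 peroxiredoxins, which reduce peroxides with electrons from thioredoxin or, for Prdx6, from glutathione, had negative log2 fold changes at 72 h over 24 h, with a median of -0.30, and 3 of them were called. In this comparison 8351 of all 15713 genes were negative and 12.8% were called lower. Prdx6 (chr1:161240112-161251219, minus strand) had 49.8, 51.9 and 53.5 CPM after air, 63.1, 67.3 and 58.0 CPM at 24 h and 49.3, 44.4 and 49.7 CPM at 72 h, with no overlap between the groups. It was 23.9% lower at 72 h than at 24 h (log2 fold change -0.39 ± 0.07, edgeR adjusted p = 0.00982). Its 24 h value stood 0.28 ± 0.07 above air on the log2 scale, which was not called (adjusted p = 0.163), and 72 h gave -0.12 ± 0.07 over air (adjusted p = 0.328). Prdx3, the mitochondrial enzyme (chr19:60864051-60874556, minus strand), had 61.9, 62.5 and 66.2 CPM after air, 69.5, 69.1 and 62.8 CPM at 24 h and 50.7, 52.5 and 57.7 CPM at 72 h. Its libraries at 72 h lay below all others, 20.2% lower than at 24 h (log2 fold change -0.33 ± 0.07, edgeR adjusted p = 0.0149), and -0.24 (adjusted p = 0.0646) without the pair with other markers.

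Prdx2, a cytosolic enzyme (chr8:84969587-84974834, plus strand), had 106, 118 and 124 CPM after air, 125, 132 and 123 CPM at 24 h and 99.7, 107 and 109 CPM at 72 h. Its 72 h values lay below those at 24 h and overlapped air, a log2 difference from 24 h of -0.27 ± 0.07 (edgeR adjusted p = 0.0317) and of -0.18 (adjusted p = 0.134) without the pair with other markers. Rnaseh2a and Junb overlap Prdx2 on the opposite strand, so its counts are uncertain if the counting ignored strand. Prdx1, the most abundant peroxiredoxin (chr4:116685544-116700822, plus strand), had 874, 903 and 856 CPM after air, 878, 803 and 802 CPM at 24 h and 585, 722 and 715 CPM at 72 h. Its 72 h libraries lay below all others, replicate 1 lowest. Prdx1 was not called with all 9 libraries (log2 fold change -0.38 ± 0.09 at 72 h over air, edgeR adjusted p = 0.0519), and was called lower without the pair with other markers (-0.27, adjusted p = 0.0475). Prdx4 and Prdx5, of the endoplasmic reticulum and of mitochondria and peroxisomes, had log2 fold changes of -0.24 ± 0.10 and -0.26 ± 0.07 at 72 h over air, with all 72 h libraries below air and neither called (edgeR adjusted p = 0.177 and 0.0640).

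**Figure D5:**
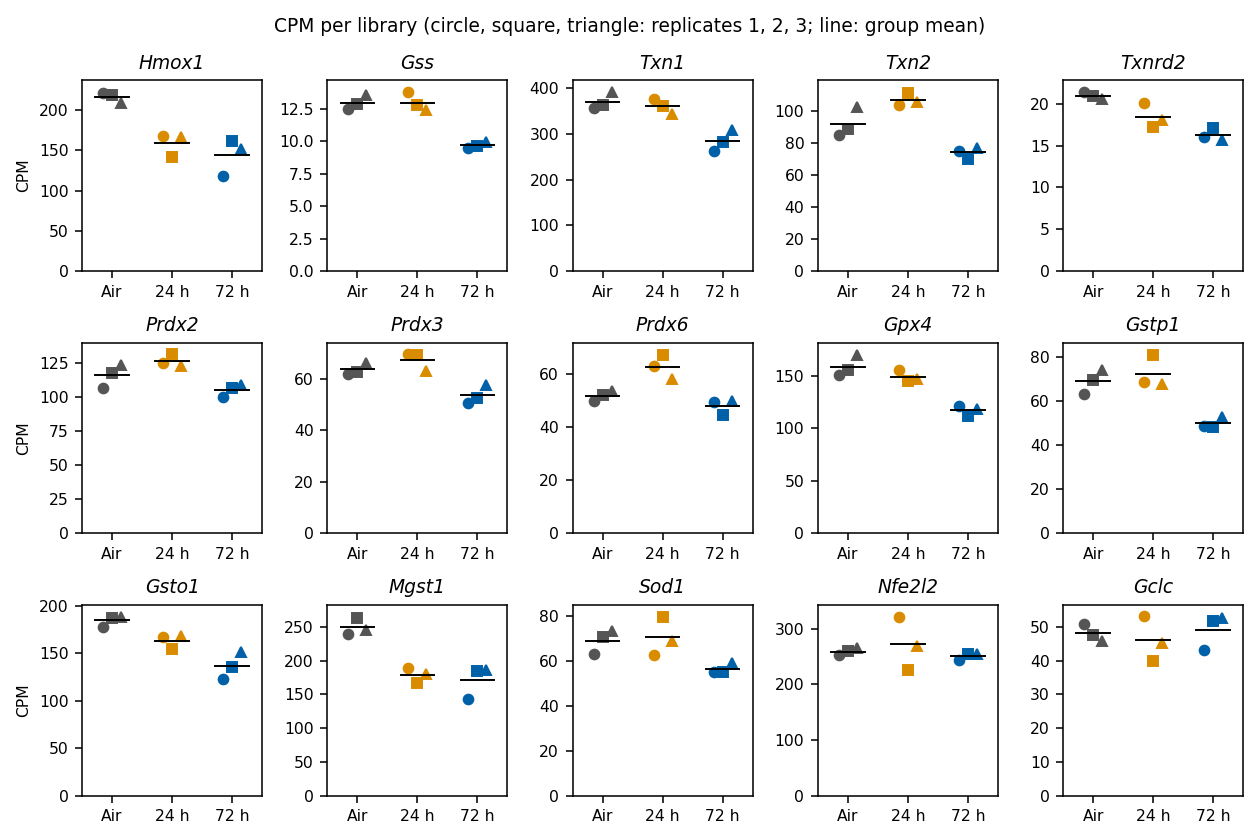
CPM in each library (circle, square and triangle for replicates 1, 2 and 3, line for the group mean) in air (grey), at 24 h (orange) and at 72 h (blue) after ozone, for the 13 members called in any comparison and for Nfe2l2 and Gclc; every axis starts at 0. Hmox1, Txnrd2, Gsto1 and Mgst1 lie below air in both ozone groups, and Gss, Txn1, Prdx3, Gpx4, Gstp1 and Sod1 overlap air at 24 h and lie below it at 72 h.

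Among the glutathione peroxidases, Gpx4 fell. Gpx4, which reduces lipid peroxides in membranes and guards cells against ferroptosis (chr10:80047166-80056439, plus strand), had 151, 155 and 170.4 CPM after air, 156, 146 and 147 CPM at 24 h and 121, 112 and 119 CPM at 72 h. Its 72 h libraries lay below all others, and air and 24 h overlapped. It was 26.2% lower at 72 h than in air (log2 fold change -0.44 ± 0.07, edgeR adjusted p = 0.0226), the smallest p of any member in that comparison, and 21.6% lower than at 24 h (-0.35 ± 0.07, adjusted p = 0.0106). A near-identical pseudogene, Gpx4-ps2, 99.7% identical over 762 bases, was given counts equal to 10.8% of those of Gpx4 over all libraries, so the split between them is uncertain. The sum of the 2 was 156, 169 and 198 CPM after air, 172, 165 and 171 CPM at 24 h and 137, 120 and 126 CPM at 72 h, again lowest in all libraries at 72 h.

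Gpx1, the cytosolic enzyme for hydrogen peroxide and the most abundant member per length (chr9:108338903-108340343, plus strand), had 367, 413 and 479 CPM after air, 399.9, 401 and 374 CPM at 24 h and 339.9, 279 and 311 CPM at 72 h. All 72 h values lay below the others. Its log2 fold change at 72 h over air was -0.44 ± 0.11, not called (edgeR adjusted p = 0.0533), and -0.49 without the pair with other markers, called (adjusted p = 0.0362). Gpx3, the secreted plasma enzyme, ran the other way at a low level, with 1.60, 1.37 and 1.53 CPM after air, 1.80, 2.21 and 1.52 CPM at 24 h and 2.85, 1.97 and 2.49 CPM at 72 h. It is the member with all 72 h libraries above air, at 0.70 ± 0.20 on the log2 scale, which was not called (edgeR adjusted p = 0.0791).

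Of the 9 glutathione transferases, which attach glutathione to reactive compounds, 3 were called lower at 72 h than in air. The share called lower over all genes was 3.77%. Gstp1, the pi class enzyme (chr19:4035407-4037985, minus strand), had 63.4, 69.6 and 74.0 CPM after air, 68.8, 80.9 and 67.6 CPM at 24 h and 48.6, 48.2 and 52.8 CPM at 72 h. The 72 h libraries lay below all others. It was 27.7% lower than in air (log2 fold change -0.47 ± 0.09, edgeR adjusted p = 0.0289) and 31.2% lower than at 24 h (-0.54 ± 0.09, adjusted p = 0.00795). A near-identical gene, Gstp2, was given counts equal to 4.34% of those of Gstp1, and their sum was 66.2, 73.4 and 76.1 CPM after air, 72.4, 82.8 and 70.7 CPM at 24 h and 50.7, 51.5 and 55.2 CPM at 72 h. Gsto1, the omega class enzyme (chr19:47854970-47864790, plus strand), had 178, 188 and 188 CPM after air, 168, 154 and 169 CPM at 24 h and 123, 136 and 151 CPM at 72 h, with no overlap between the 3 groups. It was 26.1% lower at 72 h than in air (log2 fold change -0.44 ± 0.08, edgeR adjusted p = 0.0289).

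Mgst1, microsomal glutathione transferase 1, a membrane enzyme that also reduces lipid peroxides and whose promoter match is printed above (chr6:138140316-138156755, plus strand), had 239, 263 and 246 CPM after air, 189, 166 and 181 CPM at 24 h and 143, 185 and 186 CPM at 72 h. Every ozone library lay below every air library, and the 2 ozone groups overlapped. It was 31.3% lower at 72 h than in air (log2 fold change -0.54 ± 0.11, edgeR adjusted p = 0.0319). At 24 h the log2 fold change over air was -0.48 ± 0.11 (adjusted p = 0.124), and -0.43 (adjusted p = 0.0498) without the pair with other markers. Gstm1, a mu class enzyme (chr3:108012255-108017973, minus strand), had 253, 244 and 232 CPM after air, 222, 181 and 206 CPM at 24 h and 177, 207 and 199.8 CPM at 72 h, all ozone values below air. Its log2 fold changes over air, -0.26 ± 0.09 at 24 h and -0.32 ± 0.09 at 72 h, were not called (edgeR adjusted p = 0.271 and 0.0743). Mgst3 was lower in all 72 h libraries than in air by -0.31 ± 0.09, not called (edgeR adjusted p = 0.0862).

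Mgst2, which can also make leukotriene C4, turned on the libraries with other markers (chr3:51660360-51682677, plus strand). It had 7.19, 9.03 and 7.34 CPM after air, 3.74, 13.9 and 3.92 CPM at 24 h and 10.8, 7.97 and 6.71 CPM at 72 h. Replicate 2 at 24 h and replicate 1 at 72 h held its 2 highest values. With all 9 libraries its log2 fold changes were -0.13 ± 0.50 at 24 h over air, 0.11 ± 0.50 at 72 h over air and 0.24 ± 0.50 at 72 h over 24 h, none called (edgeR adjusted p = 0.913, 0.909 and 0.793). Without that pair it was lower at 24 h than in air (-1.03, adjusted p = 0.0498) and higher at 72 h than at 24 h (0.96, adjusted p = 0.0118), with -0.08 at 72 h over air (adjusted p = 0.757). Gsta3 was highest in the same 2 libraries, at 4.30 and 1.19 CPM, against 0.183 to 0.406 CPM in the other 7. Gsta4, at 0.240 to 0.855 CPM, was highest in replicate 2 at 24 h, and neither gene was called.

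Of the enzymes that remove superoxide and hydrogen peroxide directly, Sod1 was called in 1 comparison. Sod1, the copper-zinc superoxide dismutase of the cytosol (chr16:90220754-90226329, plus strand), had 62.8, 70.8 and 73.1 CPM after air, 62.8, 79.6 and 68.8 CPM at 24 h and 55.0, 54.9 and 59.0 CPM at 72 h. The 72 h libraries lay below all others. Its log2 fold change at 72 h over 24 h was -0.32 ± 0.09 (edgeR adjusted p = 0.0453), and -0.19 (adjusted p = 0.169) without the pair with other markers. Leaving out 1 library at a time kept this call in 2 of 9 fits. Sod2, the mitochondrial enzyme, was lower in all 72 h libraries than in air by -0.23 ± 0.07, not called (edgeR adjusted p = 0.0900). Cat, catalase of peroxisomes (chr2:103453849-103485160, minus strand), had 184, 226 and 176 CPM after air, 183, 172 and 180.0 CPM at 24 h and 167, 190.0 and 186 CPM at 72 h. The groups overlapped, with log2 fold changes of -0.13 (-0.36 to 0.09) at 24 h and -0.11 (-0.34 to 0.12) at 72 h over air.

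A list of 104 further genes of the same pathways, of which 95 were tested, was read from the same fit. At 72 h, 9 of these were called lower than in air and Msrb3 higher, and at 72 h 16 were lower and 2 higher than at 24 h, while at 24 h 0 were called against air (edgeR; 11 at an unadjusted p under 0.05, and 5 by DESeq2). Over all genes, 3.77% were lower and 1.71% higher than in air at 72 h, 12.8% lower and 5.39% higher than at 24 h, and at 24 h over air 14.7% passed an unadjusted p under 0.05 and 3.93% were called by DESeq2. The list's median log2 fold change was -0.12 at 72 h over air and -0.10 at 72 h over 24 h. Without the pair of libraries with other markers, 7 were lower and 2 higher at 72 h than in air, and 8 lower and 4 higher than at 24 h. Over all genes, that fit called 2.70% lower and 4.46% higher than in air, and 8.68% lower and 6.63% higher than at 24 h. The calls against air at 72 h fell to 0 without air replicate 2 or replicate 2 at 72 h, to 1 without air replicate 3 or replicate 3 at 72 h, to 2 without replicate 1 at 72 h, to 3 without replicate 1 at 24 h and to 5 without air replicate 1. The calls against 24 h numbered 5 without replicate 2 at 72 h, 6 without replicate 1 at 24 h, 8 without replicate 3 at 72 h, 9 without air replicate 2 or replicate 1 at 72 h, and 11 without replicate 3 at 24 h. In the fits that gave 5, 6 and 8, all genes called numbered 658, 1408 and 1404, against 2855 with all libraries, and in those against air the calls over all genes fell as given above.

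NADPH supplies the electrons for glutathione reductase and the thioredoxin reductases, and 3 of the 9 NADPH genes were called lower at 72 h than in air. Over all genes 3.77% were called lower. Idh2, the mitochondrial isocitrate dehydrogenase that makes NADPH, averaged 91.5 ± 2.11 CPM after air, 90.3 ± 4.36 CPM at 24 h and 66.1 ± 2.78 CPM at 72 h (SD, n = 3 each). It was lower at 72 h by 0.47 ± 0.06 on the log2 scale than in air (edgeR adjusted p = 0.00952) and by 0.45 ± 0.06 than at 24 h (adjusted p = 0.00523). Mthfd2, a mitochondrial enzyme of the folate cycle, averaged 29.9 ± 2.67 CPM after air, 31.8 ± 1.5 CPM at 24 h and 19.6 ± 0.782 CPM at 72 h. Its log2 fold change was -0.61 ± 0.08 at 72 h over air (edgeR adjusted p = 0.0117) and -0.70 ± 0.08 at 72 h over 24 h (adjusted p = 0.00379).

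Rbx1, a RING subunit of the ligase that KEAP1 uses, averaged 61.0 ± 2.93 CPM after air, 61.5 ± 2.70 CPM at 24 h and 49.1 ± 2.07 CPM at 72 h (-0.31 ± 0.06 over air, edgeR adjusted p = 0.0291). Msra, which repairs oxidised methionine, averaged 29.4 ± 1.53 CPM after air, 24.4 ± 1.14 CPM at 24 h and 22.7 ± 1.12 CPM at 72 h. It was called lower at 72 h than in air (-0.37 ± 0.07, edgeR adjusted p = 0.0277), and its -0.27 ± 0.07 at 24 h over air was not called (adjusted p = 0.152). Txnl1, a thioredoxin-like protein, averaged 56.2 ± 3.75 CPM at 72 h and 73.9 ± 2.72 CPM at 24 h, a log2 change of -0.40 ± 0.06 (edgeR adjusted p = 0.00795). Hpgds, which makes prostaglandin D2 with glutathione as cofactor, rose between the times, averaging 9.75 ± 1.16 CPM at 72 h and 4.47 ± 0.414 CPM at 24 h (1.12 ± 0.16, adjusted p = 0.00612), with 6.54 ± 1.15 CPM in air. Mt2, a metallothionein, had the next smallest p after Msra at 24 h against air, with 27.9 ± 4.17 CPM at 24 h and 47.0 ± 10.8 CPM in air (-0.75 ± 0.19), and was not called (edgeR adjusted p = 0.170). Msrb3, a methionine sulfoxide reductase named here after its values were seen, had log2 fold changes of 1.58 ± 0.31 at 72 h over air (edgeR adjusted p = 0.0319) and 1.23 ± 0.31 at 72 h over 24 h (adjusted p = 0.0280).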

How the data were processed

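The authors deposited an estimated count for each gene in each of 9 libraries. The submitters' processing notes name Trimmomatic 0.39, FastQC, Salmon, DESeq2 and the build GRCm38.p6. Per the labels' protocols, a stranded kit for total RNA was used, on RNA with integrity numbers of at least 8.8. The sources used here give no other version and no option, such as the use of strand. Of 54281 identifiers, 54107 matched GENCODE M21, which gave symbols and coordinates, and 80.5% of values were whole (tolerance 1e-06).

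Values were rounded and analysed in R 4.3.3 with edgeR 4.0.16: filterByExpr, TMM, and 1 robust quasi-likelihood fit of all 9 libraries, with Benjamini-Hochberg adjustment over 15713 genes. The common biological coefficient of variation was 0.312, and over the 30 members at 10 CPM or more the median was 0.0980. With 3 mice in each group the smallest exact two-sided permutation p is 0.1, so single values have no separate test. Levels per length use the principal transcript, chosen after lengths over all exons were seen. Alternatives were limma voom (limma 3.58.1), DESeq2 1.42.0, other scalings and filters, the replicate number as a block and libraries left out. The procedure was tested on simulated data, with changes set in genes drawn from all those tested. It recovered 32.8% to 34.3% of 1.5-fold, 50.7% to 64.2% of 2-fold and 75.8% to 78.8% of 4-fold changes. For genes so drawn, a change of 1.5-fold or less could thus often go uncalled. The median coefficient of variation was 0.181 over all genes tested and 0.101 over the 35 members, whose own recovery was not simulated. Libraries of a group differed by more than sampling noise (chi-square of 6.82 to 128 per degree of freedom).

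The members and lists were chosen with earlier results of these data known. Values per library are given for members called with all libraries or without the pair with other markers, for Hmox1, Nfe2l2, Keap1, Nqo1, Gclc, Gclm, Slc7a11, Txnrd1 and Srxn1, and for the most abundant member of each role group per length, by principal transcript or by all exons. Of the further pathway genes, up to 4 called per comparison with the smallest p are named, or the 2 with the smallest p where 0 were called. Gpx3, Gstt1, Gsta3 and Gsta4 were added after their values were seen. Some results are not reported here.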

Additional observations from a re-analysis of the deposited data

Results flagged for a closer look

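Levels differed between 24 h and 72 h after ozone for 9 members, by edgeR's test of 72 h against 24 h itself. The labels give no time for the single air group. A change in the response to ozone and other differences between the ozone groups thus cannot be told apart. All 9 were lower at 72 h, and in this comparison 12.8% of all genes were called lower and 5.39% higher. The log2 differences were -0.53 for Txn2, -0.54 for Gstp1, -0.42 for Gss, -0.39 for Prdx6, -0.35 for Gpx4, -0.33 for Prdx3, -0.34 for Txn1, -0.27 for Prdx2 and -0.32 for Sod1. Of these, Txn2, Gstp1, Gss, Prdx6 and Gpx4 were also called without the pair of libraries with other markers, and Prdx3, Txn1, Prdx2 and Sod1 were not. With 1 library left out at a time, Sod1 was called in 2 of 9 fits, Prdx2 in 3, Txn1 in 6 and Prdx3 in 7. Gpx4 was called in 8 of these fits, and Txn2, Gstp1, Gss and Prdx6 in all 9.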

How the results depend on the processing

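The members' median log2 fold change stayed negative under every alternative run, at -0.09 to -0.03 for 24 h over air, -0.30 to -0.19 for 72 h over air and -0.24 to -0.12 for 72 h over 24 h, and no called member changed sign. Numbers of calls moved more, and the causes were not tested. For 24 h over air, 2 members were called without the pair of libraries with other markers, and DESeq2 called 3 members and 5 pathway genes. For 72 h over air, against 8 members and 10 pathway genes, DESeq2 called 15 and 21, no filter on low counts gave 5 and 3, upper quartile scaling 3 and 3, and leaving out the pair and the air library lacking Xist 4 and 4. DESeq2 size factors gave 6 pathway genes and a filter of 1 CPM gave 5. Of all genes, 0.839% were called with no filter and 2.74% without the pair and that air library. With DESeq2 size factors it was 3.22% and with the 1 CPM filter 3.72%. Leaving out 1 library gave 0 to 14 members and 0 to 13 pathway genes. For 72 h over 24 h, against 9 and 18, leaving out 1 library gave 4 to 9 members and 5 to 16 pathway genes. Leaving out the pair and the air library lacking Xist gave 8 pathway genes, DESeq2 size factors 11 and no filter 9. Of all genes, 11.7%, 16.1% and 5.27% were called under these settings. Over all genes, DESeq2 called 618, 1936 and 3636 genes in the 3 comparisons and upper quartile scaling 1, 299 and 2465, against 1, 860 and 2855.

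Correlations of deviations from the group means ran from -0.61 to 0.48 for same-numbered libraries and from -0.61 to 0.73 for differently numbered ones. The highest joined the pair of libraries with other markers, so these values cannot tell whether the replicate numbers pair the mice. With the replicate number as a block, 0 members and 0 pathway genes were called for 72 h over air, where 0.223% of all genes were called, and 6 members and 8 pathway genes for 72 h over 24 h, where 9.38% of all genes were.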
